A study of Homo sapiens with 6 samples.

Results

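The aldo-keto reductases (AKR) are enzymes that use NADPH to reduce aldehydes and ketones to alcohols. Their signal was compared between Caco2 cells, a human colon cancer line, and a derivative of the line resistant to methotrexate (MTX), an antifolate that stops cells making thymidylate and purines. The family was listed as AKR1A1, AKR1B1, AKR1B10, AKR1B15, AKR1C1, AKR1C2, AKR1C3, AKR1C4, AKR7A2 and AKR7A3. Every probe set that the platform annotation names for one of these genes was taken, including the one that lists 2 AKR symbols, which gave 16 probe sets of 7 of the 10 genes. The arrays held 54613 probe sets that were not controls, named for 19775 genes in all. AKR1A1, AKR1B1 and AKR1B15 had no probe set named for them in the annotation used and were not analysed here.

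RNA of each cell type was hybridised to 3 Affymetrix HG U133 Plus 2.0 arrays, on which a probe set reports one signal intensity per transcript. The parental cells were sensitive to MTX and were grown in Ham's F12 medium with fetal bovine serum. The resistant cells had been selected with stepwise increasing MTX, grew in 10 µM MTX, and were kept in a medium without glycine, hypoxanthine and thymidine, with dialyzed serum. The medium therefore changed together with the group, and the effects of drug selection and medium cannot be told apart. The labels leave it unsaid whether the 3 samples of a group were grown separately, and a p-value here reflects the variation among those samples alone, perhaps only technical. Levels are given as signal divided by the median signal of the array, which lay between 10.6 and 12.8 signal units. The epithelial markers EPCAM, CDH1, KRT8, KRT18, KRT20, VIL1 and LGALS4 stood at 10 times the array median or more in both groups. CDX1 and CDX2 were below the array median in both groups, and CDH17 was at 1.37 times it in parental and 2.43 in resistant cells. Of 5 enterocyte markers, DPP4 was above the array median (6.54 and 22.1), and SI, ALPI, ANPEP (0.55 and 0.07) and FABP1 (0.48 and 0.08) were below it in both groups. Of the markers of other cell types, COL1A1 (3.67 and 3.31) and PECAM1 (2.05 and 1.80) were above it in both groups and CD3E in the parental cells (1.25 and 0.42), while PTPRC, LST1, COL1A2, COL3A1, PDGFRB and CDH5 were below it in both. Parental array 3 stood apart from the other parental arrays. Its correlation with them was 0.946 and 0.949, against 0.966 between parental arrays 1 and 2, and its correlation with the resistant arrays (0.935 to 0.939) was above that of parental arrays 1 and 2 (0.914 to 0.929).

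In human cells many AKR genes are targets of NRF2, the transcription factor encoded by NFE2L2. KEAP1 holds NRF2 down until electrophiles or oxidants modify it. AKR1B10 is a reductase of the intestinal epithelium that acts on retinal and on reactive aldehydes, the AKR1C enzymes reduce steroid and prostaglandin ketones, and the AKR7A enzymes reduce dialdehydes, among them the aflatoxin dialdehyde.

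The family fell into an inducible and a constant set. A probe set was called inducible when its mean log2 level was at least 2-fold higher in the resistant cells and all 3 resistant arrays lay above all 3 parental arrays, and constant when the change was under 2-fold either way. Probe sets whose mean over the 6 arrays was under the array median were called dim and were not classed. Of the 16 probe sets, 7 were inducible, 5 were constant and 4 were dim. The inducible ones belong to AKR1B10, AKR1C1, AKR1C2 and AKR1C3, and the constant ones to AKR1C4, AKR7A2 and AKR7A3. The members were selected on this same contrast, so their changes are given without a test. For scale, 3.73% of the 26563 probe sets bright enough to be tested met the same inducible rule and 91.9% changed by under 2-fold. The member just inside the 2-fold limit was AKR1C3 (4.64-fold), and the one just outside it was AKR1C4 (1.76-fold).

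**Figure D1:**
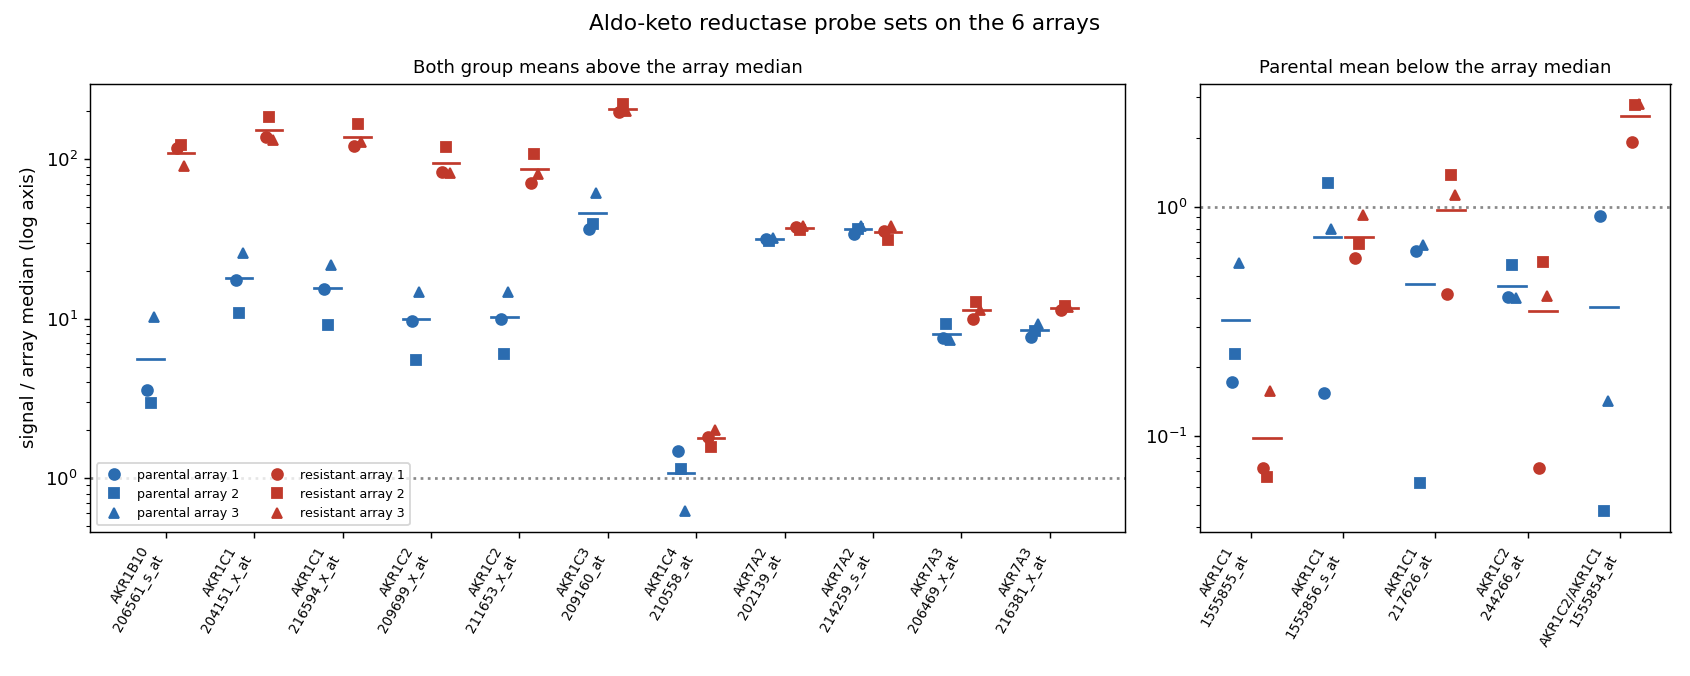
Signal of each AKR probe set on each array, divided by the array median (log axis; the 2 panels have different ranges). Points are arrays (blue, parental; red, resistant), horizontal bars are arithmetic group means, and the dotted line is the array median. The resistant arrays of AKR1B10 (90.3 to 122) lie far above the parental ones (2.94 to 10.2), while those of AKR7A2 lie just above the parental range on 202139_at (36.0 to 38.4 against 30.8 to 32.1) and span it on 214259_s_at (31.4 to 38.4 against 34.2 to 38.1).

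AKR1B10, the intestinal aldehyde and retinal reductase, had the largest change in the family. Its probe set 206561_s_at gave 3.58, 2.94 and 10.2 times the array median on parental arrays 1, 2 and 3, and 117, 122 and 90.3 on the resistant arrays. The groups did not overlap, and within the parental group array 3 stood 3.14 times above the mean of the other two. The change was 4.52 ± 0.39 on the log2 scale (SE, n = 3 a group), a 23.0-fold difference, rank 23 among the 26563 tested probe sets ordered from the largest increase. Without parental array 3 it was 33.7-fold, and with other single arrays left out it went as low as 18-fold. Against parental array 3 alone the resistant mean was 10.8 times higher. Probe sets of the type s_at may pick up more than 1 transcript of a family, and whether it also reads AKR1B15, a close relative of AKR1B10, was not tested.

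AKR1C1 inactivates progesterone and AKR1C2 inactivates dihydrotestosterone, and their coding sequences are nearly identical, so that each of their bright probe sets (type x_at) may read both. For AKR1C1, probe set 204151_x_at gave 17.5, 10.8 and 26.0 times the array median in parental cells and 139, 186 and 132 in resistant cells. Probe set 216594_x_at gave 15.5, 9.14 and 21.9 against 121, 167 and 129. Both placed every resistant array above every parental array, with parental array 2 the lowest and resistant array 2 the highest. The log2 changes were 3.15 ± 0.27 and 3.24 ± 0.27 (SE), or 8.87-fold and 9.45-fold.

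For AKR1C2, probe set 209699_x_at gave 9.66, 5.52 and 14.7 times the array median on the parental arrays and 83.8, 120 and 81.6 on the resistant ones. Probe set 211653_x_at gave 10, 6 and 14.6 against 71.0, 108 and 81.1. The order of the arrays within the parental group was the same as for AKR1C1. The log2 changes were 3.34 ± 0.31 and 3.15 ± 0.29 (SE), or 10.1-fold and 8.90-fold, so the 4 x_at probe sets of AKR1C1 and AKR1C2 differed from each other in log2 change by at most 0.19, less than the SE of each.

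A further probe set, 1555854_at, is annotated to both AKR1C2 and AKR1C1. It gave 0.91, 0.05 and 0.14 times the array median in parental cells, all below that median, and 1.92, 2.77 and 2.81 in resistant cells. The groups did not overlap. Its mean over the 6 arrays reached the array median, and so the classes, only through the resistant arrays. The log2 change of 3.76 ± 0.98 (13.5-fold) rests on these low parental signals. It was 3.76-fold with 0.5 times the array median added to every value, 5.80-fold with signals below the 25th percentile of an array set to it, 6.86-fold without parental array 2 and 30.2-fold without parental array 1.

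AKR1C3, which makes testosterone from androstenedione and reduces prostaglandin D2 and H2 to F-type prostaglandins, has 1 probe set here, 209160_at. It gave 36.6, 39.4 and 61.6 times the array median in parental cells and 199, 223 and 201 in resistant cells. The lowest resistant array was well above the highest parental one. The log2 change was 2.22 ± 0.18 (SE), or 4.64-fold, and 5.45-fold without parental array 3.

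Parental array 3 was thus the highest parental array for the tested AKR1B10, AKR1C1, AKR1C2 and AKR1C3 probe sets named for a single gene. Its level over the mean of parental arrays 1 and 2 was 1.84 and 1.78 for AKR1C1, 1.94 and 1.83 for AKR1C2 and 1.62 for AKR1C3. Over all tested probe sets this ratio had a median of 0.956, and 7.36% reached 1.6. Among the 991 probe sets that met the inducible rule its median was 1.17, and 27.2% reached 1.6. The part that parental array 3 plays in the spread of these genes was not tested. Leaving it out gave larger changes for each of those probe sets, as removing the highest parental array must.

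The AKR1C genes lie side by side on chromosome 10. The windows shown are the 250 bases before the start (RefSeq, GRCh38.p14, given 5′ to 3′ on the strand of the gene), printed because AKR1C1, AKR1C2 and AKR1C3 were higher together. AKR1C1 is at chr10:4963165-4963414 (plus strand), AKR1C2 at chr10:5003858-5004107 (minus strand), AKR1C3 at chr10:5048531-5048780 (plus strand) and AKR1C4 at chr10:5196587-5196836 (plus strand). Capitals mark ATTGGTTAACCA, the longest run shared by all windows of AKR1C1, AKR1C2 and AKR1C3.
AKR1C1: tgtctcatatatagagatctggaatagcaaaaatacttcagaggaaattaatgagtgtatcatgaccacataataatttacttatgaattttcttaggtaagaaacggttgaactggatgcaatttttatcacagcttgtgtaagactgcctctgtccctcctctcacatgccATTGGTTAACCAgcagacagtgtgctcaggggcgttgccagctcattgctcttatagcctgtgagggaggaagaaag
AKR1C2: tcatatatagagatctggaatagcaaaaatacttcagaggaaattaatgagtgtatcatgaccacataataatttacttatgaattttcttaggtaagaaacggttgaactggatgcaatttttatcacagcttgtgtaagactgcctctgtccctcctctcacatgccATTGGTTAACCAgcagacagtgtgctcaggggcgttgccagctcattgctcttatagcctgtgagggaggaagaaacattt
AKR1C3: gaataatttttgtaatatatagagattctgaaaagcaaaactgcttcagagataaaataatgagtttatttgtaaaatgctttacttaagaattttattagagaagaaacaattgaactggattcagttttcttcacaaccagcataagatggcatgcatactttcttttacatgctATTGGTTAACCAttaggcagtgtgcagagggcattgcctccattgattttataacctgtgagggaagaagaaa
AKR1C4: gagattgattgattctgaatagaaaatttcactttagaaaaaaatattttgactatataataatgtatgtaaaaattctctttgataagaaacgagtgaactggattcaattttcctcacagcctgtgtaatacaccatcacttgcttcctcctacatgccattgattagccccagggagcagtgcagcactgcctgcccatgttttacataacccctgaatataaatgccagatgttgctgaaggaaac

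The windows of AKR1C1 and AKR1C2 were identical at 245 of 254 aligned columns (96.5%). AKR1C1 and AKR1C3 shared 71.4%, the windows of the 2 annotated starts of AKR1C3 62.4%, and AKR1C1 and AKR1C4 58.7%. The 12-base run began 77 bases before the start in AKR1C1, 81 in AKR1C2, and 73 and 86 in the windows of AKR1C3. Searched on both strands, it stood in 5 of 35116 windows of this length (0.0142%), those of AKR1C1, AKR1C2, AKR1C3 and PPFIA2, and not in that of AKR1C4. The run was picked from these sequences, so its presence is a description. The core of the electrophile response element that NRF2 binds, TGACNNNGC on either strand, stood in 10.9% of all windows and in none of the AKR1C windows. Beside that share the AKR1C windows are too few for their lack of a match to be read as a trait. Only the 250 bases before a start were searched, so sites farther away would not be seen. TGANTCA, a pattern including the AP-1 core, stood in 6.57% of all windows. It stood in none of the windows given for 8 listed AKR genes. No window was given for AKR1B10.

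**Figure D2:**
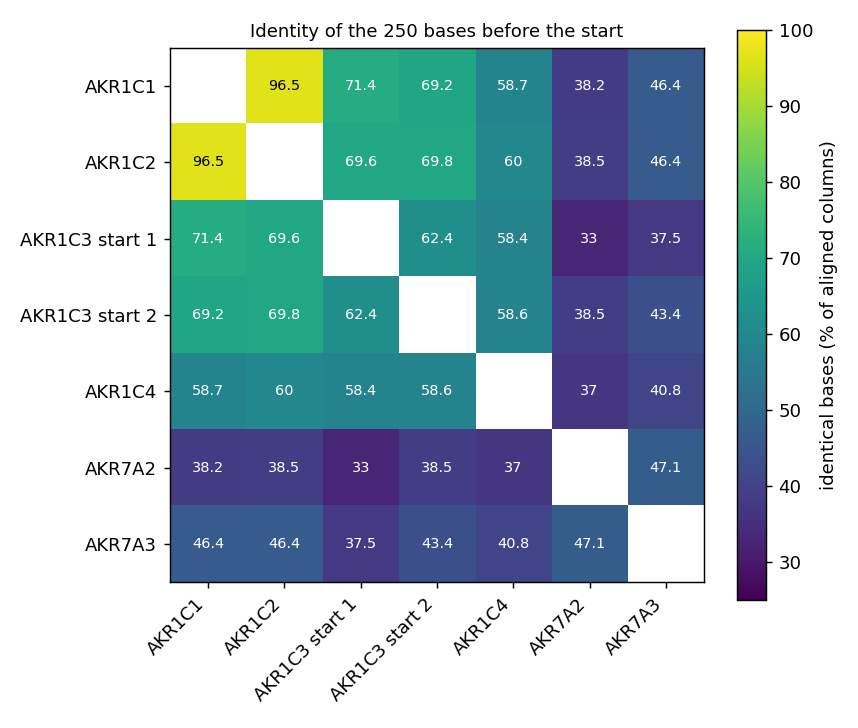
Percentage of identical bases between the 250-base windows before the transcription starts of AKR1C and AKR7A genes, over the columns of a global alignment. AKR1C3 has 2 annotated starts. AKR1C1 and AKR1C2 share 96.5%, the AKR1C3 windows 69.2 to 71.4% with these and 62.4% with each other, and AKR1C4 58.4 to 60% with the other AKR1C windows.

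AKR1C4, the liver-type member that acts in bile acid synthesis, was near the array median in both groups. Its probe set 210558_at gave 1.47, 1.14 and 0.62 times the array median in parental cells and 1.82, 1.57 and 1.99 in resistant cells. Each resistant array was above each parental one, by a small margin for parental array 1. The log2 change was 0.82 ± 0.40 (SE), or 1.76-fold. Its class rests on single arrays, since the change was 2.12-fold without parental array 1 and 1.38-fold without parental array 3.

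The AKR7A genes, which lie together on chromosome 1, moved least. For AKR7A2, which reduces succinic semialdehyde, probe set 202139_at gave 31.7, 30.8 and 32.1 times the array median in parental cells and 37.7, 36.0 and 38.4 in resistant cells, a log2 change of 0.24 ± 0.12 (SE). Probe set 214259_s_at gave 34.2, 36.8 and 38.1 against 35.3, 31.4 and 38.4, a log2 change of -0.06 ± 0.13. The groups did not overlap on the first and overlapped on the second, so the 2 probe sets of the gene differed in sign.

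For AKR7A3, a relative that reduces the aflatoxin dialdehyde, probe set 206469_x_at gave 7.53, 9.27 and 7.35 times the array median in parental cells and 9.93, 12.7 and 11.4 in resistant cells. Probe set 216381_x_at gave 7.64, 8.38 and 9.31 against 11.4, 12 and 11.9. All resistant arrays were above the parental ones on both, with log2 changes of 0.49 ± 0.17 and 0.48 ± 0.15 (SE), or 1.41-fold and 1.40-fold. With AKR1C4, this made 11 of the 12 tested member probe sets with every resistant array above every parental array, as 17.7% of all tested probe sets were. Among the 11, 1555854_at was bright enough to be tested only through its resistant arrays. Parental array 3 was 0.87 to 1.16 times the mean of the other parental arrays on the AKR7A probe sets.

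The window before the start of AKR7A2, at chr1:19312147-19312396 (minus strand, GRCh38.p14), is shown because AKR7A2 was the only listed gene whose window held the TGACNNNGC core. Capitals mark its 3 matches, which began 167, 156 and 95 bases before the start, the first of them on the opposite strand.
AKR7A2: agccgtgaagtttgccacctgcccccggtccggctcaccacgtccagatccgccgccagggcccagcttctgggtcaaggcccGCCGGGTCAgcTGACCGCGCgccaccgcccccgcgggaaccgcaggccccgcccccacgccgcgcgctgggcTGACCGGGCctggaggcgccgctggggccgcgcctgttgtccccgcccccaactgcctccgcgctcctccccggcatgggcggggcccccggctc
Guanine and cytosine made up 67.2% to 79.2% of the AKR7A windows and 32% to 40.8% of the AKR1C windows, with a median of 58.0% over all windows. AKR7A2 and AKR7A3 shared 47.1% of aligned columns.

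The 4 dim probe sets were 3 of AKR1C1 and 1 of AKR1C2, with group means below the array median. Probe set 1555855_at of AKR1C1 gave 0.17, 0.23 and 0.57 times the array median in parental cells and 0.07, 0.07 and 0.16 in resistant cells, the only member probe set with all resistant arrays below the parental ones. Probe set 217626_at gave 0.64, 0.06 and 0.68 against 0.41, 1.38 and 1.12, with overlap. The groups also overlapped on 1555856_s_at and on 244266_at of AKR1C2. Which transcripts these dim probe sets read was not tested. The mean over all probe sets named for the gene alone gave a log2 change of 1.34 for AKR1C1 and 1.90 for AKR1C2, against 3.15 and 3.34 on the brightest probe set of each.

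**Figure D3:**
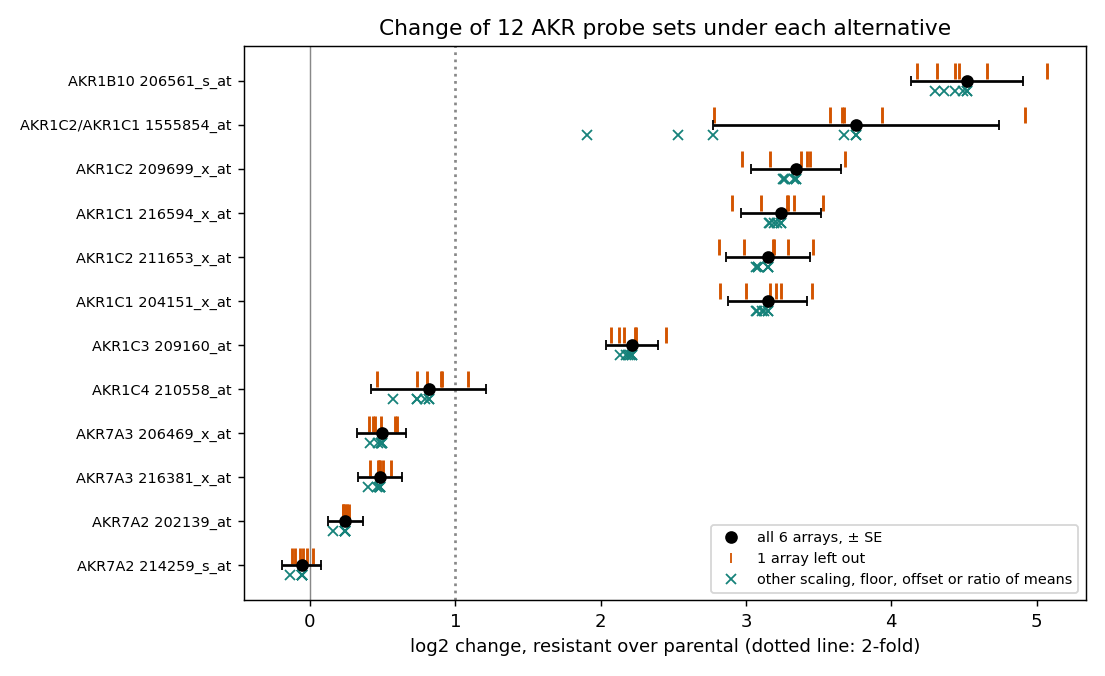
Log2 change, resistant over parental, of the 12 tested AKR probe sets with all arrays (black, ± SE), with 1 array left out (orange) and with another scaling, floor, offset or a ratio of linear means (green). The dotted line marks 2-fold. AKR1C4 crosses that line in 1 case (2.12-fold), and 1555854_at spans 3.76-fold to 30.2-fold.

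Outside the listed members, 6 further genes of the AKR superfamily were examined, of which KCNAB1 and KCNAB2, potassium channel beta subunits with an AKR fold, were bright enough to be tested. By its brightest probe set neither gene passed (limma, adjusted p = 0.634 and 0.221), nor did either at an unadjusted p below 0.05. The log2 changes were 0.62 ± 0.75 and 0.62 ± 0.30 (SE). KCNAB1 had a parental mean of 0.73 and a resistant mean of 1.36 times the array median, and was bright enough only through the resistant arrays. A dimmer tested probe set of KCNAB2 gave 1.19, 0.98 and 1.16 times the array median in parental cells and 2.50, 2 and 1.73 in resistant cells. The groups did not overlap on it, and its log2 change of 0.89 ± 0.31 did not pass either (limma, adjusted p = 0.0952). AKR1D1, the bile acid and steroid 5-beta-reductase, was below the array median on every array, at 0.26 to 0.45 times it in parental cells and 0.01 to 0.04 in resistant cells. AKR1E2, next to AKR1C1 on the chromosome, was not bright enough to be tested.

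The genes around the AKR genes were put to the same test. Of the 10 protein-coding genes on each side of the AKR1C, AKR1B and AKR7A genes, 37 of 60 were tested, 1 rose and 2 fell at an adjusted p below 0.05 (limma), with a median log2 change of -0.04. Over all 11849 genes tested by their brightest probe set, 7.33% rose and 4.96% fell, with a median of 0.01. Near the AKR1C genes IDI1, an isoprenoid synthesis enzyme, rose by 0.77 ± 0.17 (adjusted p = 0.0208), from a mean of 38.7 to 64.9 times the array median. CALML3 (log2 change -0.73, adjusted p = 0.43) had the next largest change among those 12 tested genes. Near AKR1B10 CHCHD3, of the mitochondrial inner membrane, fell by 0.58 on the log2 scale (adjusted p = 0.0218), and BPGM, the nearest gene tested on one side, had a change of 0.55 (adjusted p = 0.349). Near the AKR7A genes KLHDC7A fell by 1.02 on the log2 scale (adjusted p = 0.0165), and NBL1 had a change of 1.41 (adjusted p = 0.0876). IDI1 passed on 2 of its 4 tested probe sets and KLHDC7A on 1 of 2. These counts depended on single arrays: without parental array 3, 7 neighbours rose and 9 fell. The share of all genes called without that array is not given here.

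**Figure D4:**
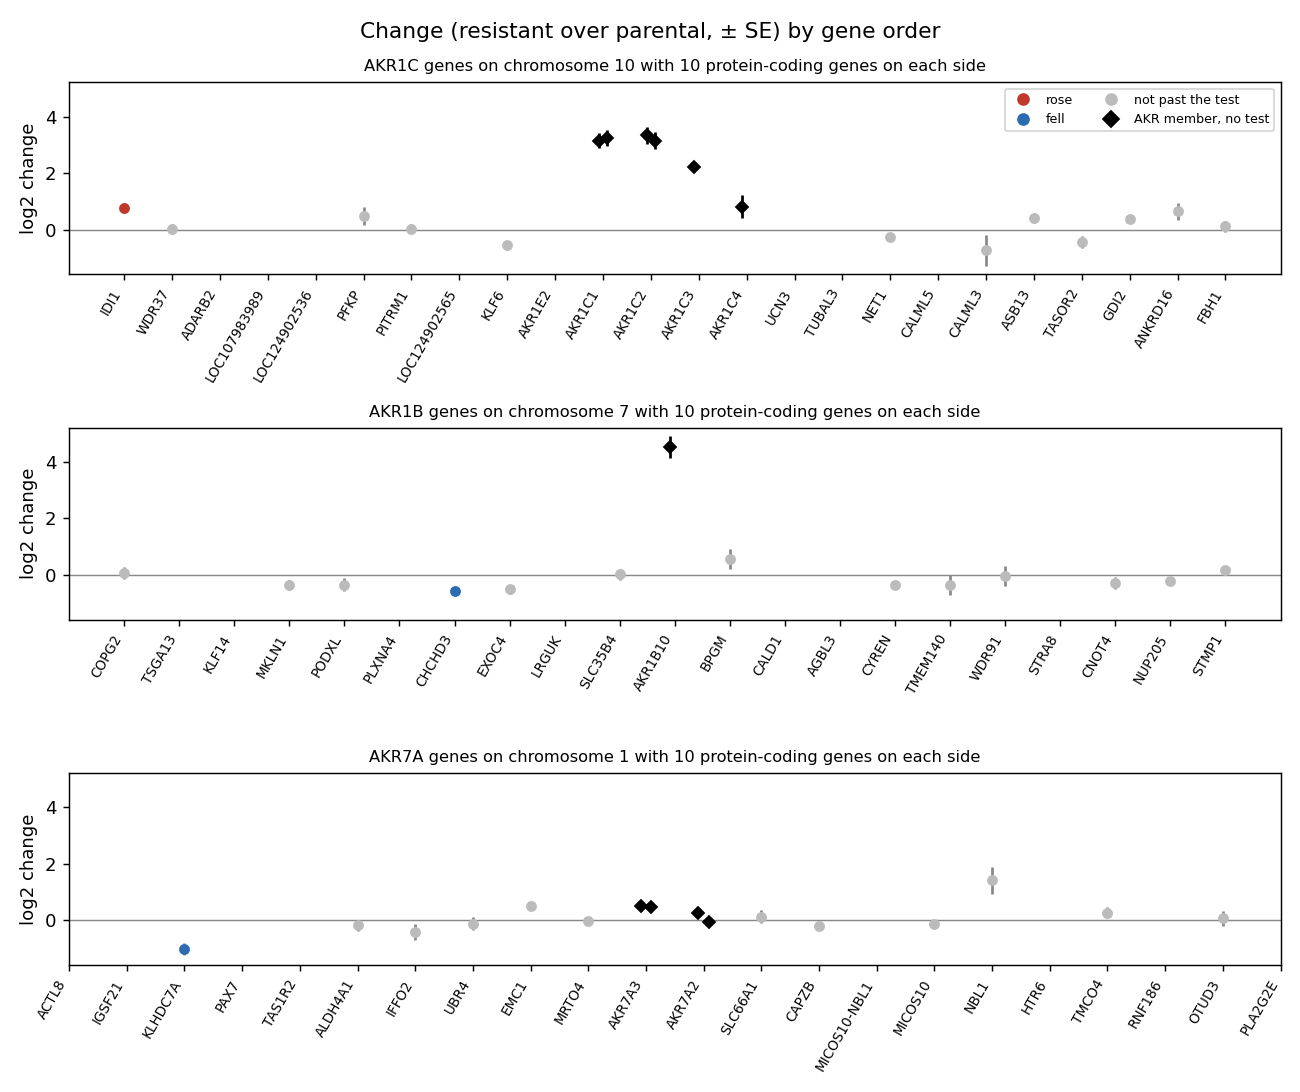
Log2 change (± SE) of AKR members (black diamonds) and of the 10 protein-coding genes on each side, in RefSeq gene order and not to scale. Red points rose, blue points fell and grey points did not pass the test, genes without a point were not tested, and AKR1B1 and AKR1B15 are left out. The AKR1C1, AKR1C2 and AKR1C3 points (2.22 to 3.34) and AKR1B10 (4.52) stand above all tested neighbours.

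No regulator of NRF2 passed the test, while 9 of its targets rose in the resistant cells. NFE2L2 gave 87.1, 90.8 and 73.6 times the array median in parental cells and 92.7, 79.2 and 93.3 in resistant cells, a log2 change of 0.08 ± 0.13 (SE; limma, adjusted p = 0.728). KEAP1 gave 12.5, 12.1 and 19.9 against 18.9, 18.2 and 21.1, a change of 0.42 ± 0.20 (adjusted p = 0.209). None of the 12 regulators tested passed, and 1 was higher at an unadjusted p below 0.05. The largest absolute change among them was that of NFE2L1, a related factor (-0.49 ± 0.24, adjusted p = 0.216).

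Of 27 NRF2 targets tested that are no AKR gene, 9 rose, none fell and 18 did not pass, with a median log2 change of 0.44, beside 7.33% and 4.96% of all 11849 genes and a median of 0.01. At an unadjusted p below 0.05, 16 of the 27 were higher and 2 lower. The lower ones were HMOX1 (-0.84 ± 0.25; limma, adjusted p = 0.0587) and EPHX1 (-0.71 ± 0.20, adjusted p = 0.0542), named after their values were seen. On both, every resistant array lay below every parental one. GPX2 was the only one of the 9 that kept its call with each resistant array left out. PIR, an iron-binding nuclear protein, gave 5.87, 3.52 and 11.5 times the array median in parental cells and 16.5, 18.4 and 18.8 in resistant cells (1.53 ± 0.35, adjusted p = 0.0236). GPX2, the intestinal glutathione peroxidase, gave 137, 154 and 222 against 383, 408 and 404 (1.25 ± 0.16, adjusted p = 0.00142). Both had parental array 3 as the highest parental array, as had TKT, an enzyme of the pentose phosphate pathway, with 73.4, 71.7 and 157 against 169, 187 and 184 (0.94 ± 0.25, adjusted p = 0.0453). NQO1, a quinone reductase, rose by 0.77 ± 0.18 (adjusted p = 0.0266). GPX2 lost its call under 1 of 15 alternatives, and PIR, NQO1 and TKT under 6, 7 and 9. These calls are those of the brightest probe set of each gene. GPX2 passed on 1 of its 2 tested probe sets, NQO1 on 2 of 3 and TKT on 1 of 3, while PIR had 1.

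Among 19 other enzymes that reduce or oxidise carbonyls and alcohols, 6 rose and 1 fell, with a median of 0.50. Of all tested genes 7.33% rose and 4.96% fell. ADH1C and ADH6 are alcohol dehydrogenases, and ADH1C gave 0.61, 0.24 and 0.07 times the array median in parental cells and 3.05, 2.30 and 1.22 in resistant cells (log2 change 3.22 ± 0.85, adjusted p = 0.0406). ADH6 had a parental mean of 0.53 and a resistant mean of 2.70 (2.47 ± 0.47, adjusted p = 0.0112), so the parental level of both was below the array median, and both passed the filter on low signals through the resistant arrays. ALDH3A1, which oxidises aldehydes, gave 2.92, 1.14 and 6.81 against 9.36, 12.7 and 10.6 (1.93 ± 0.50, adjusted p = 0.0395). With an offset of 0.5 the changes of ADH1C, ADH6 and ALDH3A1 were 1.73, 1.66 and 1.71. CBR1, a carbonyl reductase of another protein family, rose by 1.22 ± 0.30 (adjusted p = 0.0326). The gene that fell was ALDH3B1 (log2 change -0.95, adjusted p = 0.00937), named after its values were seen. CBR1 lost its call under 7 of 15 alternatives and ALDH3A1 under 8 of 15, among them the fits without each resistant array. ADH1C lost its call under 5 of the 13 alternatives in which it was tested, ADH6 under 3 of 14 and ALDH3B1 under 2 of 15.

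The pathways whose intermediates the AKR enzymes handle were mixed. Of 15 retinoid genes tested 2 rose and none fell (median 0.38), where 7.33% of all genes rose. RBP4, the plasma retinol carrier, gave 2.39, 2.34 and 3.22 times the array median in parental cells and 9.52, 10.7 and 12.9 in resistant cells (2.06 ± 0.20, adjusted p = 0.000316). RDH10, which makes retinal from retinol, rose by 0.83 ± 0.15 (adjusted p = 0.00958), a call that was lost without resistant array 2 or 3.

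Of 13 prostaglandin genes tested 1 fell and none rose (median -0.08), beside 4.96% and 7.33% of all tested genes. PTGS2, the inducible cyclooxygenase that makes the prostaglandin H2 that AKR1C3 can reduce, gave 51.0, 36.7 and 18.1 in parental cells and 4.54, 3.27 and 5.50 in resistant cells. The groups did not overlap, and the log2 change was -2.90 ± 0.34 (SE; limma, adjusted p = 0.00101). TBXAS1, thromboxane synthase, had a change of 2.61 ± 0.80 and did not pass (adjusted p = 0.0677). Its parental mean was 0.92 and its resistant mean 3.32 times the array median.

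Of 15 steroid genes tested 2 rose and 1 fell (median 0.37), beside 7.33% and 4.96% of all tested genes. NR0B2, a nuclear receptor that represses bile acid synthesis, gave 0.11, 0.11 and 0.27 times the array median in parental cells and 2.42, 2.55 and 1.05 in resistant cells (3.66 ± 0.82, adjusted p = 0.0226). With an offset of 0.5 its change was 1.86. Its parental level was below the array median, and it passed the filter on low signals through the resistant arrays. It was tested under 12 of the alternatives and lost its call under 2 of them. HSD17B8, a steroid dehydrogenase, rose by 0.61 ± 0.16 (adjusted p = 0.04), and STS, the steroid sulfatase, fell by 1.02 on the log2 scale (adjusted p = 0.0450). Both calls were lost under 9 of 15 alternatives, among them 5 of the 6 fits with 1 array left out. STS passed on 1 of its 3 tested probe sets. Of 7 polyol and glyoxalase genes tested 2 rose (median 0.52), where 7.33% of all tested genes rose. They were GLO1, which removes methylglyoxal (81.3 to 168 times the array median, 1.07 ± 0.16, adjusted p = 0.00347), and HK2, a hexokinase (0.94 ± 0.23, adjusted p = 0.0336). HK2 passed on 1 of its 2 tested probe sets and lost its call under 7 of 15 alternatives, GLO1 under 1 of 15.

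**Figure D5:**
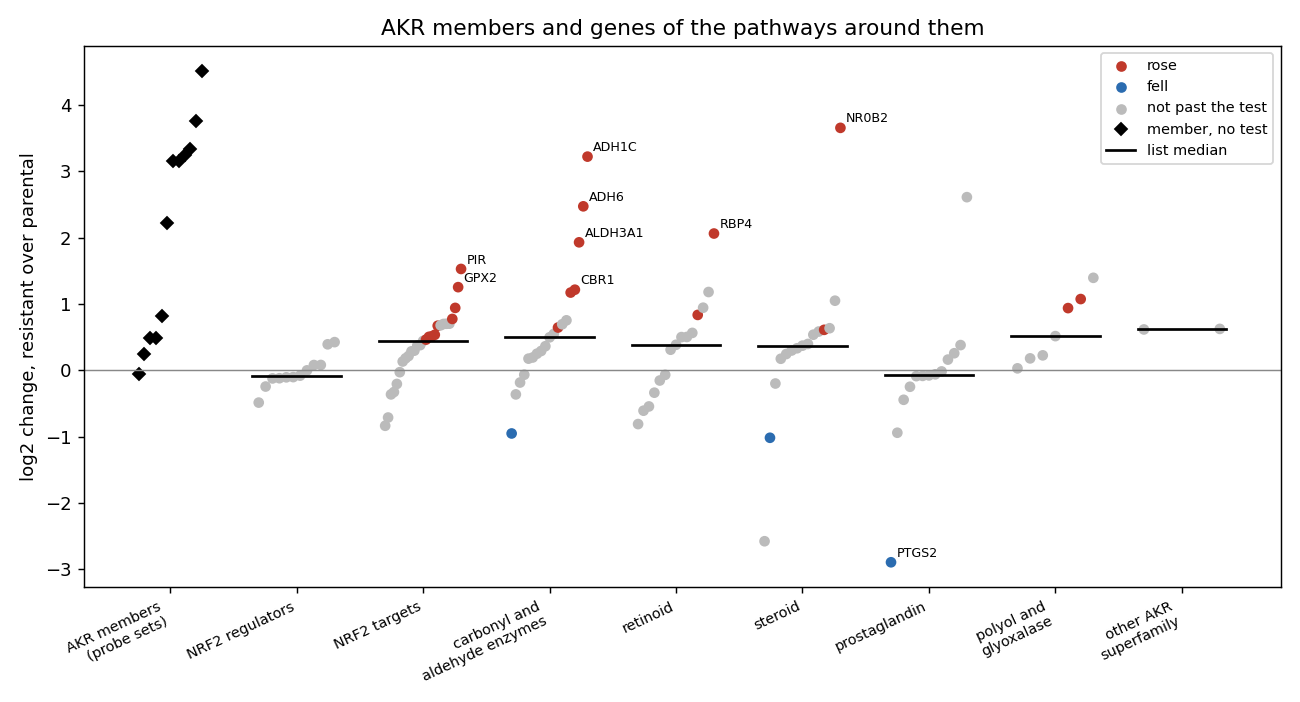
Log2 change, resistant over parental, of the AKR probe sets (black diamonds, no test) and of the tested genes of 8 lists, each gene by its brightest probe set. Red genes rose and blue genes fell at an adjusted p below 0.05, and the bar is the median of the list. Medians run from -0.09 for NRF2 regulators to 0.62 for the 2 other AKR superfamily genes.

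Over the 7 pathway lists, 108 of 150 genes were tested, 21 rose and 3 fell, with a median log2 change of 0.30, beside 7.33% and 4.96% of all tested genes and a median of 0.01. The counts rested on the full set of arrays, since 4 rose without any 1 of the resistant arrays, 9 without parental array 1, 11 without parental array 2 and 43 without parental array 3. The shares of all genes called with an array left out are not given here, so these counts cannot be read as a trait of the lists. Of the 24 pathway genes and 3 neighbours called, RBP4 passed under every alternative run, and GPX2, PTGS2 and GLO1 passed under all but the methods' t-test. A level in bulk RNA cannot tell more cells with a transcript from more RNA per cell, and the part of the cells' state in these changes was not tested.

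The genes whose pattern over the 6 arrays was most like that of AKR1B10, by Pearson's r of log2 levels among 22477 tested probe sets of a single gene, were SLC5A3 (r = 0.999), SCARB1, PTGR1, PKDCC and ORC3, all with r of at least 0.997. SLC5A3 carries myo-inositol, SCARB1 is a lipoprotein receptor and PTGR1 reduces prostaglandins and enals. For AKR1C3 they were NUDC (r = 0.998), SCARB1, TMEM98, PRKACB and SLC5A3. TMEM98 had a parental mean of 0.12 and a resistant mean of 1.94 times the array median, and passed the filter through the resistant arrays. These points are 6 arrays in 2 groups, and 685 probe sets reached r of 0.95 with AKR1B10 and 675 with AKR1C3. SLC5A3 went from 18.8, 17.6 and 26.3 times the array median in parental cells to 63.0, 67.6 and 58.3 in resistant cells.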

How the data were processed

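RNA of parental and MTX-resistant Caco2 cells was measured on 3 arrays each. The authors deposited one linear signal intensity per probe set and array, and the submitters' processing notes name MAS5 (version and target of scaling: not given in the sources used here). Precision is limited by the number of arrays. No pair of arrays held identical values, and 0 columns belonged to no sample.

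The 62 control probe sets were left out. Intensities were scaled to the median of the array, the first normalization step of the methods, and taken to log2, 10 exact zeros having been replaced by 0.05 signal units. Probe sets whose mean over the 6 arrays reached the array median, 26563 in number, entered a two-sided limma 3.58.1 test in R 4.3.3 (lmFit, then eBayes with an intensity trend). P-values were adjusted over all of them by Benjamini-Hochberg, and the threshold was 0.05. SEs are those of this fit. With 3 against 3 arrays the smallest p of an exact permutation test is 0.1. The script was checked on simulated data.

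Names came from the platform annotation, updated through Entrez identifiers to RefSeq (GRCh38.p14). Of the probe sets 41091 had 1 symbol, 1801 several and 11721 none listed. Genes other than members were represented by their brightest probe set of 1 symbol. The members and all lists were chosen with earlier results of these data known, and the lists overlap with what the family was selected for. The genes named are all member probe sets, up to 4 genes per list or neighbourhood with the largest changes past the threshold (or, with under 2 past it, values of the 2 with the largest change), NFE2L2, KEAP1 and the 5 genes most like AKR1B10 and AKR1C3. ALDH3B1, HMOX1, EPHX1, AKR1D1, AKR1E2, PPFIA2 and the cell type markers fall outside this rule. Promoter windows were aligned with Biopython 1.88, and windows were given for 8 of the 10 members. A planned comparison of protein sequences was not run.

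The alternatives comprised signals left unscaled, quantile normalization, a stricter filter (3 times the median) and none. Others were a floor or an offset for low signals, eBayes without the trend and a plain unpaired t-test on log2 levels. The rest were the replicate number as a block, a ratio of linear means, averaging over a gene's probe sets, and leaving out each array. The methods name an unpaired t-test, but their array step also used an error model and a control filter, not repeated here.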

Additional observations from a re-analysis of the deposited data

How the results depend on the processing

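The 7 inducible and 5 constant probe sets numbered 6 and 4 with the filter at 3 times the median, 7 to 8 and 4 to 5 with single arrays left out, and 7 and 7 with no filter, an alternative for the classes chosen after seeing the data. They numbered 7 and 5 with quantile normalization, no further scaling, raised low signals, the offset and the replicate block, and were not counted under the others. The log2 change of each tested member probe set kept its sign under the scalings, the floor, the offset, the linear ratio and with arrays left out, except that of AKR7A2 214259_s_at (-0.14 to 0.02), and the mean of all probe sets gave 1.34 for AKR1C1, 1.90 for AKR1C2, 0.093 for AKR7A2 (against -0.06) and 0.49 for AKR7A3. Of 108 pathway genes tested, 21 rose and 3 fell. The count that rose was 6 with no intensity trend and 1 with the plain t-test, and 4 to 43 with single arrays left out. The count that fell was 5 with no further scaling and 0 with the plain t-test, and 1 to 16 with single arrays left out. For the neighbours (1 rose, 2 fell) the count that rose was 2 with the filter at 3 times the median. It was 0 with no intensity trend and 0 with the plain t-test. The count of neighbours that fell was 1 with no intensity trend and 0 with the plain t-test. With single arrays left out, 0 to 7 neighbours rose and 0 to 9 fell. The shares of all genes called under the alternatives are not given beside these counts. Without a filter 1 other AKR superfamily gene, AKR1D1, was called lower. Of 399 combinations of a called pathway or neighbour gene with an alternative, 242 kept the call, 157 lost it and 0 changed direction. The cause of these changes was not tested.

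Arrays with the same replicate number showed no shared deviation over the tested probe sets, the correlations of their deviations being -0.018, -0.022 and -0.016. The labels leave it unsaid whether the samples were paired. With the replicate number as a block, 19 pathway genes rose and 3 fell, 1 neighbour rose and 2 fell, no other AKR superfamily gene was called (0 rose, 0 fell), and 7 probe sets were inducible and 5 constant. Signals near or below the array median limit, among others, the probe sets 1555854_at and 210558_at and the genes ADH1C, ADH6, NR0B2, TMEM98, KCNAB1, TBXAS1 and CALML3. The signals came without detection calls.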
